A study of Mus musculus with 14 samples.

Results

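The longest H3K27me3 domains of Myc-driven medulloblastoma cells, outside the Hox clusters, were followed after loss of Ezh2. A domain here is an island of the H3K27me3 list of Cas9 tumour cells, that is, a run of enriched windows joined across gaps, which measured 20 kb or more, lay on an autosome and stayed clear of the 4 Hox spans in build mm9 (chromosome 6 from 52.08 to 52.28 Mb, chromosome 11 from 96.02 to 96.26 Mb, chromosome 15 from 102.72 to 102.89 Mb and chromosome 2 from 74.48 to 74.63 Mb). This gave 223 of the 14107 islands of that list. Both kinds of tumour cell were mouse cells that lack p53 and p18 and overexpress Myc. One kind carried Cas9 alone, and the other was labelled Ezh2-/- as well. Per the labels' protocols, tumourspheres of Group 3 medulloblastoma, a childhood tumour of the cerebellum, received retroviral vectors, were sorted for 2 fluorescent proteins and expanded. The protocols go on to transplantation into the cortex of CD-1 nu/nu mice, and do not say whether the cells profiled came from culture or from the grafts, or whether the knockout was 1 clone. Each mark was profiled by ChIP-seq in 1 library per kind of cell, so no value has a replicate error, no test across samples was possible, and the intervals below are 95% intervals for counting error only.

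Ezh2 is the catalytic subunit of Polycomb repressive complex 2, which places methyl groups on lysine 27 of histone H3. The fully methylated form, H3K27me3, marks silenced chromatin, and the complex also binds its own mark, so that it can extend from a first site of recruitment over a broad domain. Such broad domains are known to cover developmental regulators that are off in the cell studied. H3K4me3 marks promoters, H3K27ac marks active promoters and enhancers, and H3K27ac and H3K27me3 cannot sit on the same residue of 1 histone tail. Promoters that carry H3K4me3 and H3K27me3 together are called bivalent. Gene positions in build mm9 were not used here, so domains are given by position.

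The domains had a median length of 24.8 kb, from 20 to 78 kb, and together spanned 6.14 Mb, or 8.60% of the 71.4 Mb under H3K27me3 in Cas9 cells. They were chosen by that length, which is therefore not a finding. They were spread unevenly, with 30 on chromosome 1, 28 on chromosome 5, 24 each on chromosomes 4 and 11 and 21 on chromosome 2, against 2 on chromosome 12 and 0 on chromosome 18. Most had company: 192 of 223 lay within 5 kb of another H3K27me3 island of Cas9 cells, with a median gap of 1 kb, and 85 lay within 100 kb of another domain. A domain is thus often 1 piece of a wider H3K27me3 neighbourhood that the caller's 600 bp gap divides. At the length minimum, the 3 shortest domains with the highest scores measured 20 kb each, at chr3:87789601-87809600, chr14:118620201-118640200 and chr14:122867401-122887400, with 0, 2.6 and 0 kb under knockout islands. Just below it were islands of 19.8 kb at chr7:144497601-144517400, chr19:59230801-59250600 and chr5:120686201-120706000, with 9.4, 2.6 and 16 kb under knockout islands.

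Across the genome, the H3K27me3 list went from 14107 islands and 71.4 Mb in Cas9 cells to 5312 islands and 18.6 Mb in the knockout. The H3K4me3 lists were of like length, with 14363 and 14417 peaks, and the H3K27ac lists were not, with 7951 and 10112. Read depth is unknown, and the part of depth in these numbers was not tested.

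In Cas9 cells the domains held few active marks. They held 56 H3K4me3 peaks, in 47 of 223 domains, or 21.1% (16.2 to 26.9), and 2 H3K27ac peaks, in 2 domains. Per megabase this was 9.12 H3K4me3 peaks (6.89 to 11.8), below the 17.4 (15.2 to 19.8) in autosomal islands of 10 to 20 kb outside the Hox spans and the 33.1 (31.02 to 35.3) in those under 5 kb. These 2 intervals do not overlap that of the domains, and the values differ by more than counting error. Peaks that cross an edge are counted, which raises the density of short islands.

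Without Ezh2 most of the H3K27me3 of these domains was no longer called, and what was left lay in short pieces. A remnant is here the part of a domain that lies under a knockout H3K27me3 island. Knockout islands met 102 of 223 domains by at least 1 bp, or 45.7% (39.3 to 52.3), where 12% of all autosomal islands of Cas9 cells were met. A longer island is met more often by position alone, so the covered length is the closer comparison: remnants took up 10.7% of the domains' length, or 657.6 kb. This was 8.24% in islands of 10 to 20 kb, 6.34% in those of 5 to 10 kb and 6.98% in the 8 islands of the Hox spans that measured 20 kb or more. Within the domains, cover did not rise with length, at 11.2% for those from 20 to 25 kb, 9.79% from 25 to 35 kb and 11.2% for longer ones. The share met was 40.7% (32.1 to 49.9), 43.2% (32.6 to 54.6) and 66.7% (50.3 to 79.8) in the same order. The first and last of these intervals do not overlap, and the middle one overlaps both.

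The remnants numbered 171 pieces with a median length of 3.2 kb, from 0.8 to 23 kb. One piece was found in 63 domains, 2 pieces in 21 and 3 to 5 pieces in 18. Among the domains met, the median cover was 17.0%, with quartiles of 10.2 and 30.8%. The islands behind the remnants had a median length of 3.2 kb, against 3 kb in the rest of the knockout list, and a median score per kb of 13.8 against 13.2. The score is the authors' own value for an island and is used here within 1 list only. These 169 islands were 3.18% of the knockout list and 10 of its top 100 by score. Knockout islands seldom ran over a domain edge: 15 of 171 pieces, or 8.77% (5.39 to 13.97), belonged to an island that did.

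**Figure D1:**
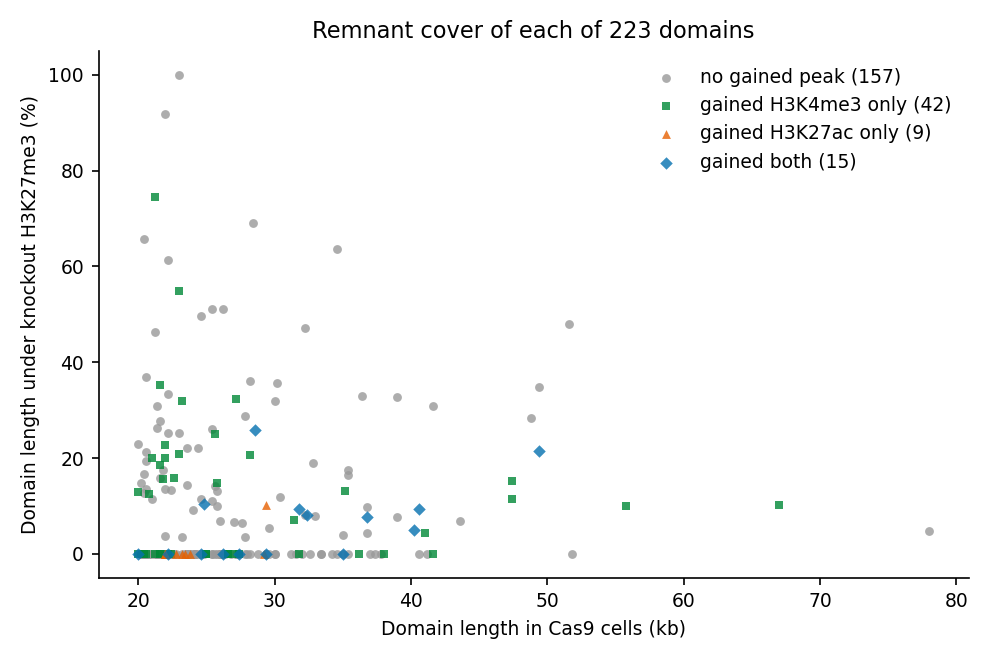
Each point is 1 of the 223 domains, by its length in Cas9 cells (kb) and the percentage of that length under knockout H3K27me3 islands, with colour and shape for the peaks gained in the knockout. Of the domains, 157 gained no peak, 42 gained H3K4me3 only, 9 gained H3K27ac only and 15 gained both, and the 10 domains over 50% covered are all shorter than 35 kb.

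Remnants lay in the middle of the domains more than at the ends. Of the remnant bases, 61.8% lay in the inner 50% of the domain's length, and of the 171 pieces 111 had their midpoint there, or 64.9% (57.5 to 71.7). Each domain was divided into 10 bins of equal width, numbered from the lower coordinate. Knockout cover was 5.42% in bin 1 and 7.85% in bin 10, against 10.9 to 15.2% in bins 4 to 8. In the flanks, 1 domain length to each side, cover was 5.37%, although 47.6% of these bases lay under other H3K27me3 islands of Cas9 cells. On flank bases outside any Cas9 island it was 2.09%. Bins 1 and 10 together, at 6.64%, were thus close to the flanks, and bins 4 to 8, at 13.0%, stood above both. Domains under 20% covered had the same pattern, with 44 of 64 pieces centred in the inner 50%, or 68.8% (56.6 to 78.8). The pattern was weaker where Cas9 islands less than 5 kb apart were first joined, with 53.2% of remnant bases in the inner 50% of the 813 domains of 20 kb or more so formed.

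**Figure D2:**
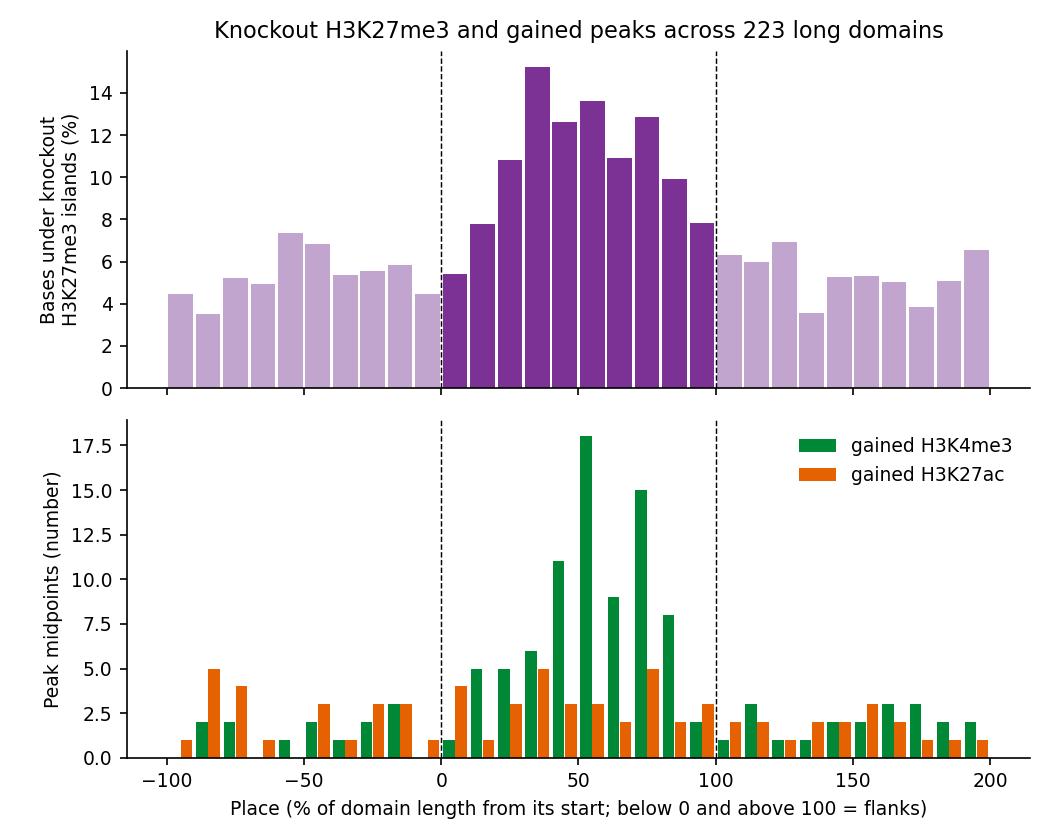
The upper panel gives the percentage of bases under knockout H3K27me3 islands in each of 10 bins of the 223 domains (dark) and in flanks 1 domain length wide with bins of the same width (light), and the lower panel the number of gained H3K4me3 and H3K27ac peaks whose midpoint lay there. The horizontal axis is the place in percent of the domain's length. Knockout cover was 15.2% in bin 4 and 5.42% in bin 1, and gained H3K4me3 peaks were most numerous in bin 6, with 18.

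The domain with the highest score in Cas9 cells, 78 kb at chr5:33816001-33894000, kept 1 remnant of 3.8 kb, from 33838801 to 33842600, and held 0 peaks of either active mark in either kind of cell. The next, 55.8 kb at chr1:74803801-74859600, kept 5.6 kb, from 74825601 to 74831200. Rank 3, 51.6 kb at chr5:35717201-35768800, had 5 pieces that covered 24.8 kb, or 48.1% of it, the longest remnant length of any domain. Rank 4, at chr19:44790801-44840200, kept 21.5% in 2 pieces. Rank 5, 67 kb at chr9:107294801-107361800, kept 10.1% in 2 pieces near its lower end. These 5 differ widely in cover, from 4.87 to 48.1%, though all had the highest scores in Cas9 cells.

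A small set of domains was covered over more than 50% of its length. This class held 10 domains, 4 of them on chromosome 1 and 2 on chromosome 5, and with 166.6 kb it gave 25.3% of all remnant bases. Those with the most remnant bases were chr17:13404601-13427600 at 100%, chr1:134792801-134827400 at 63.6%, chr1:134483801-134505800 at 91.8% and chr11:118570401-118598800 at 69.01%. Of the 10, 3 belonged to a group of 5 domains between 134 and 135 Mb on chromosome 1, whose other 2 were 47.2 and 11.02% covered. None of the 10 held an H3K4me3 peak in Cas9 cells (0 to 27.8%), 2 gained one in the knockout (5.67 to 51.0%) and 0 gained H3K27ac (0 to 27.8%). The shares of all 223 domains, 21.1, 25.6 and 10.8% in the same order, lie within these intervals. The scores of the 10 in Cas9 cells ranked from 69 to 211 among the 223 domains. These scores are per island and not per kb, so the ranks do not compare the strength of the mark between domains of unlike length.

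Knockout H3K27me3 also lay beside these highly covered domains. Within 100 kb of them, on bases outside any Cas9 island, knockout islands covered 19.1%, with a median of 20.6% per domain and a range from 6.90 to 53.6%. The same measure was 3.12% beside domains 20 to 50% covered, 1.38% beside those under 20% covered and 0.754% beside those not met, where the median domain had 0%. Neighbourhoods of domains that lie close together overlap, so some bases were counted more than once. At the chromosome 17 domain a single knockout island of 29.4 kb, from 13402001 to 13431400, ran over both edges and had the highest score of the knockout list, 647. That domain was the one of the 10 that also overlapped a Cas9 antibody island of neurospheres labelled Suz12F1. The part of these surroundings in the cover of the domains was not tested. Without the 10 domains, cover of the remaining 213 was 8.33%.

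**Figure D3:**
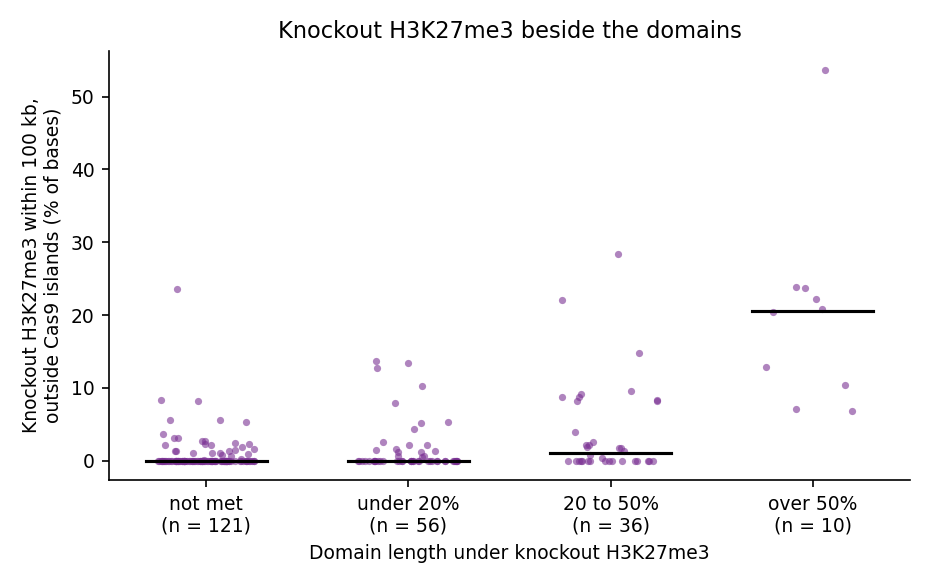
Each point is 1 domain, placed by the percentage of bases under knockout H3K27me3 within 100 kb on each side, outside Cas9 islands, and grouped by the domain's own cover, with the group's median as a line. The medians were 0, 0, 1.07 and 20.6% from domains not met to those over 50% covered.

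Active marks appeared in a minority of the domains. A gained peak is a knockout peak with no Cas9 peak of the same mark in overlap. Gained H3K4me3 numbered 80 peaks in 57 of 223 domains, or 25.6% (20.3 to 31.7), where 3.95% of all autosomal H3K27me3 islands held one. Of the 57 domains, 40 gained 1 peak, 12 gained 2, 4 gained 3 and 1 gained 4. In 44 of the 57, or 77.2% (64.8 to 86.2), there had been no H3K4me3 peak in Cas9 cells. Of all 223 domains 21.1% had such a peak, so the 57 were close to the domains as a whole in this. With no Cas9 peak allowed within 1000 bp, 69 gained peaks in 49 domains were left, so some gains lay close to a Cas9 peak. Losses were fewer: 8 of the 56 Cas9 peaks had no counterpart in the knockout, 1 in each of 8 domains, where 1.36% of all autosomal islands held a lost peak and 14.6% of the whole Cas9 H3K4me3 list was lost. The domains thus went from 56 to 127 H3K4me3 peaks and from 47 to 87 domains with such a peak.

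Gained H3K27ac was less frequent, with 31 peaks in 24 domains, or 10.8% (7.34 to 15.5), where 4.76% of all autosomal islands held one. No H3K27ac peak was lost in the domains, where Cas9 cells had 2 to lose. Of all autosomal islands 0.0641% held a lost one, and 8.62% of the whole Cas9 H3K27ac list was lost. Of the 31, 14 lay on a gained H3K4me3 peak, 12 on an H3K4me3 peak called in both kinds of cell and 5 on no H3K4me3 peak of the knockout. H3K27ac was gained in 15 of the 57 domains with gained H3K4me3, or 26.3% (16.6 to 39.0), and in 9 of the other 166, or 5.42% (2.88 to 9.98). The knockout H3K27ac list is the longer one, and trimmed by score to the number of the Cas9 list it left 13 gained peaks in 11 domains.

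Gained peaks of both marks had low scores within their lists. The median score of gained H3K4me3 in the domains was 13, from 9 to 25, against 22 for all knockout H3K4me3 peaks and 12 for the 1338 gained elsewhere. Their median width was 272.5 bp, against 505 bp for the H3K4me3 peaks of the domains that both kinds of cell had. Gained H3K27ac had a median score of 13 against 19.1 for its whole list. In the upper 50% of the knockout lists by score, 3 gained H3K4me3 and 5 gained H3K27ac peaks were left.

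Per megabase the gain of H3K4me3 was 13.02 peaks (10.3 to 16.2), against 10.7 (8.95 to 12.6) in islands of 10 to 20 kb, with overlapping intervals, and 85.1 (63.2 to 112.2) in the long islands of the Hox spans, whose interval lies far above. Gained H3K27ac stood at 5.05 per megabase (3.43 to 7.16), 5.87 (4.62 to 7.35) and 39.1 (24.8 to 58.7) in the same order. It was higher in shorter islands, at 9.53 (8.31 to 10.9) from 5 to 10 kb and 15.1 (13.7 to 16.6) under 5 kb, so the larger share of long domains with a gained H3K27ac peak goes with a lower number per length. Gained H3K4me3 was lower there, at 8.88 (7.70 to 10.2) from 5 to 10 kb and 7.21 (6.26 to 8.27) under 5 kb. Neither of these 2 intervals overlaps that of the domains. Of the knockout H3K4me3 peaks in the domains, 63.0% (54.3 to 70.9) were gained, against 26.4% (24.5 to 28.3) in all shorter autosomal islands together. The difference was 36.6 percentage points (27.7 to 44.7), and 9.84% were gained in the whole knockout list. Islands of 10 to 20 kb, the nearest in length, lay between, with 138 of 328 gained. These shares also depend on the peaks already there, 9.12 per megabase in the domains in Cas9 cells and 17.4 in islands of 10 to 20 kb. For H3K27ac the shares gained were 93.9% (80.4 to 98.3) in the domains and 85.6% (83.1 to 87.8) in all shorter islands. The interval of their difference, from -5.36 to 13.4 points, holds 0. In the whole knockout list 28.1% of H3K27ac peaks were gained.

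Gained H3K4me3 peaks also lay well inside the domains. Of the 80, 57 lay in the inner 50% of the length, or 71.3% (60.5 to 80.01), and 2 lay within 2 kb of an edge, a margin that holds 14.5% of the length. None crossed an edge. Of the 56 Cas9 peaks in the domains, 29 lay in the inner 50%, or 51.8% (39.01 to 64.3), and 7 within 2 kb of an edge. The difference in the share in the inner 50% was 19.5 percentage points (2.97 to 34.96), for counting error only. The interval treats the 80 peaks as independent, although they lay in 57 domains, and may be too narrow. Gained H3K27ac had 18 of 31 in the inner 50%, or 58.1% (40.8 to 73.6). The median distance to the nearer edge was 8.95 kb for gained H3K4me3, 6.04 kb for Cas9 H3K4me3 and 7.06 kb for gained H3K27ac.

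Domains with a remnant gained H3K4me3 in 32 of 102 cases, or 31.4% (23.2 to 40.9), and those without in 25 of 121, or 20.7% (14.4 to 28.7). The difference of 10.7 points has an interval from -0.781 to 22.1 and so was within counting error. For H3K27ac the shares were 9 of 102 and 15 of 121, a difference of -3.57 points (-11.7 to 4.96). Gained H3K4me3 and a remnant thus occurred together in 32 domains. A remnant with no gained peak was found in 69 domains, and 88 had neither.

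Where both occurred in a domain, the gained H3K4me3 often lay on the remnant itself. In the 32 domains with both, 24 of 44 gained H3K4me3 peaks overlapped a remnant, or 54.5% (40.1 to 68.3), while remnants took up 17.1% of the length of these domains. By peak midpoints the number was 23. The 24 peaks fell on 18 of the 171 remnants, in 18 domains. The 18 knockout islands with such a peak had a median length of 2.7 kb, against 3.4 kb for the other 153. In domains under 20% covered, 11 of 28 gained peaks overlapped a remnant, where remnants took up 10.6% of the length. H3K4me3 peaks that both kinds of cell had overlapped a remnant in 3 of 12 cases. All Cas9 H3K4me3 peaks of domains with a remnant, lost ones included, did so in 8 of 20 cases, or 40% (21.9 to 61.3). Remnants took up 17.8% of the length of the domains concerned. This interval overlaps that of gained peaks, so more frequent overlap of gained peaks is not shown. In islands of 10 to 20 kb, 24 of 32 gained peaks lay on a remnant, with 20.3% of the length under remnants. Gained H3K4me3 on remnants was thus not limited to the longest domains.

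Gained H3K4me3 on a remnant was seldom under H3K27ac. Of the 24 peaks on a remnant, 2 were under knockout H3K27ac, or 8.33% (2.32 to 25.8), against 8 of the 20 that lay off the remnants of such domains, or 40% (21.9 to 61.3), and 3 of 36 in domains without a remnant, or 8.33%. On remnants the share was thus the same as in domains without one, and the difference from peaks off the remnants was -31.7 percentage points (-53.8 to -6.47), for counting error only. Peaks were treated as independent, although the 24 peaks fell on 18 remnants, so this interval may be too narrow. The scores were alike, with medians of 13, 14.5 and 12.5. Of the 12 gained H3K27ac peaks in domains with a remnant, 2 overlapped it, where remnants took up 12.04% of the length of the domains concerned. In islands of 10 to 20 kb this was 11 of 16, with 28.0% of the length under remnants, and in those of 5 to 10 kb 12 of 20, with 46.6%. Of the 171 remnants, 20 held an H3K4me3 peak of the knockout and 2 an H3K27ac peak.

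The sites of gained H3K4me3 on remnants also recurred in lists made with another antibody in other cells. In neurospheres labelled U6, the Cas9 antibody gave islands at 14 of the 24 peaks on a remnant, or 58.3% (38.8 to 75.5), at 2 of the 20 off remnants, or 10% (2.79 to 30.1), and at 4 of the 36 in domains without a remnant. Of the 18 remnants with gained H3K4me3, 10 overlapped a U6 island, against 23 of the other 153, while U6 islands covered 2.75% of the domains' length. When all remnants and gained peaks at Cas9 antibody islands of any neurosphere list were left out, 9 of 25 gained H3K4me3 peaks, or 36%, overlapped a remnant, and remnants took up 17.0% of the length of the domains concerned. No share at U6 islands is given for the whole knockout H3K4me3 or H3K27me3 list. This recurrence is thus not shown to be particular to these sites. What these shared sites have in common was not tested.

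**Figure D4:**
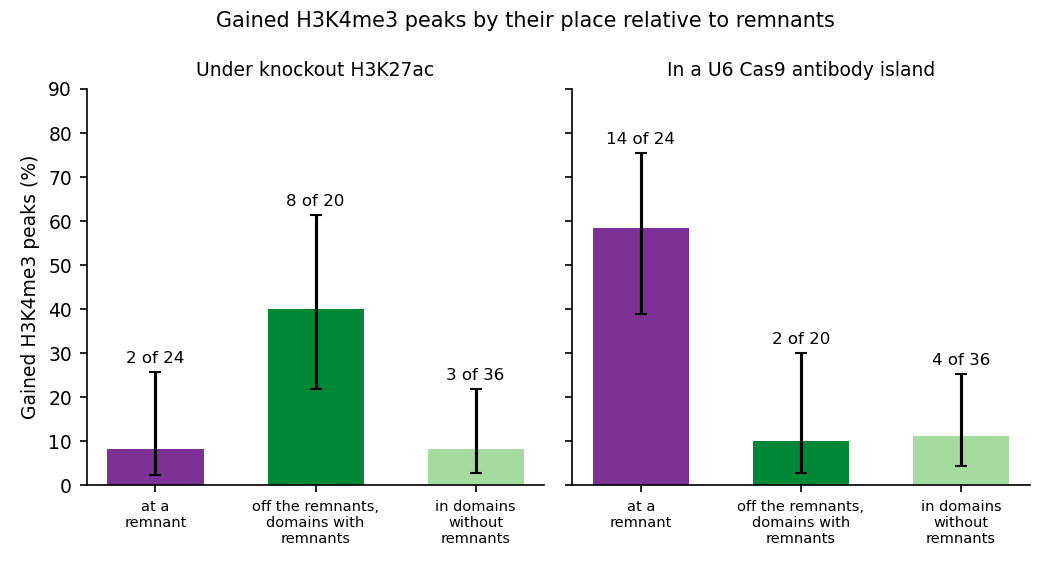
Bars give the percentage of the 80 gained H3K4me3 peaks under a knockout H3K27ac peak (left) and in a U6 Cas9 antibody island (right), split into peaks on a remnant, peaks off the remnants of domains that have one, and peaks in domains without a remnant. Error bars are Wilson 95% intervals, and the numbers above them run from 2 of 24 to 14 of 24.

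Single domains show these arrangements. At chr14:118620201-118640200, 3 gained H3K4me3 peaks, at 118634384 to 118634563, 118635716 to 118635962 and 118636115 to 118636324, all lay inside the single 2.6 kb remnant, with no H3K27ac. At chr1:74803801-74859600, 1 of 3 gained H3K4me3 peaks lay on the remnant, at 74830755 to 74831137, and the others 7063 and 18596 bp away. At chr9:107294801-107361800 the gained peak, at 107302040 to 107302671, lay on the first of the 2 remnants. At chr5:102075201-102100000, 2 gained H3K4me3 peaks and 2 gained H3K27ac peaks lay on the remnant, which runs from 102090601 to 102093200, or within 405 bp of it. This domain holds one of the 2 remnants with a knockout H3K27ac peak.

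Other domains gained marks with no remnant left or far from it. The one with the most gained H3K4me3, 4 peaks at chr12:74135601-74158000, had no remnant, and 3 of the 4 lay within 2 kb of an H3K4me3 peak that Cas9 cells had, at 74146007 to 74146201. The domain with the most gained H3K27ac, 3 peaks at chr4:114721001-114747200, had no remnant and no active mark in Cas9 cells. Its 2 gained H3K4me3 peaks, at 114729223 to 114730654 and 114735666 to 114736179, each lay under gained H3K27ac, and the first was the widest of all 80, at 1432 bp. At chr1:78183601-78218600, 3 H3K4me3 peaks and 1 H3K27ac peak were gained with no remnant, the H3K27ac peak apart from H3K4me3. At chr2:115880601-115901800, 3 H3K4me3 peaks were gained with no remnant and no H3K27ac. At chr14:63845801-63886000 a remnant of 2 kb lay 4074 bp or more from the 2 gained H3K4me3 peaks, both with gained H3K27ac. At chr19:44790801-44840200 the gained H3K4me3 and H3K27ac peaks coincided, 12856 and 12860 bp from the nearest of the 2 remnants.

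Gained H3K27ac could also sit on H3K4me3 that Cas9 cells had. At chr11:118902601-118932000, 2 H3K4me3 peaks were called in both kinds of cell and both carried H3K27ac in the knockout alone, the second with the highest score of all gained H3K27ac in the domains, 31.28. At chr19:5546401-5568600 the 2 gained H3K27ac peaks lay at the upper end of the domain, on an H3K4me3 peak of both kinds of cell. Among the 55 Cas9 H3K4me3 peaks of the domains that had no H3K27ac there, 11 carried it in the knockout, or 20% (11.6 to 32.4).

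**Figure D5:**
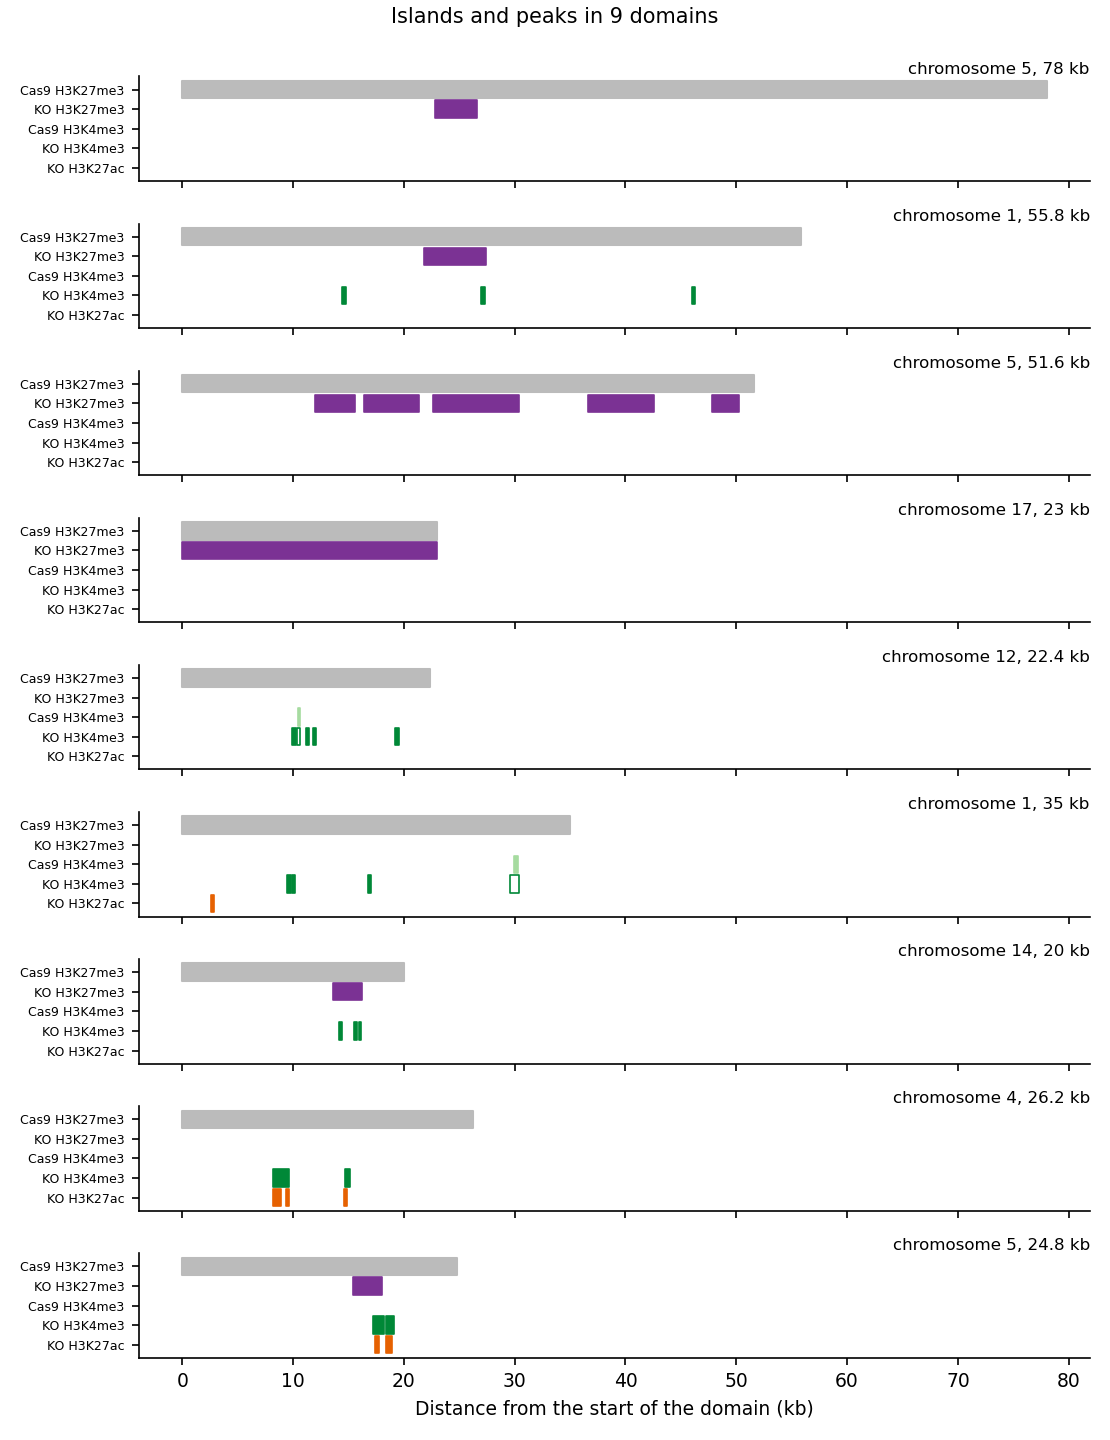
Maps of 9 of the domains named in the text, with distance from the domain's start in kb on the horizontal axis and 1 row each for the Cas9 H3K27me3 island, knockout (KO) H3K27me3 remnants, Cas9 H3K4me3 peaks and knockout H3K4me3 and H3K27ac peaks. Filled knockout peaks are gained and open ones were called in both kinds of cell, and peaks narrower than 0.25 kb are drawn at that width. On chromosome 14 all 3 gained H3K4me3 peaks lie on the remnant, and on chromosome 17 the remnant fills the domain.

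The most frequent outcome was the absence of any active mark: 130 of 223 domains, or 58.3% (51.7 to 64.6), held no H3K4me3 and no H3K27ac peak in either kind of cell. No such share is given for all autosomal islands, so this absence is not shown to be particular to the longest domains. Among the domains with neither a remnant nor a gained peak, the top 5 by score were chr9:107242201-107294000, chr4:154356601-154397200, chr2:164767801-164802800, chr5:115012201-115053400 and chr2:164915201-164947200. Those on chromosomes 9 and 5 and the first on chromosome 2 had 1 H3K4me3 peak in each kind of cell, and the other two held none. The one on chromosome 9 lies 0.8 kb below the chromosome 9 domain named above that kept 10.1% and gained H3K4me3, so that neighbouring pieces of 1 H3K27me3 stretch differed.

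Gfi1 antibody islands of neurospheres, which come from cells other than the tumour cells, overlapped all 223 domains. They covered 82.1% of the domains' length in Cas9 neurospheres and 75.2% in those labelled Suz12F2, against 68.1 and 59.1% of the length of shorter autosomal H3K27me3 islands. All 80 gained H3K4me3 peaks and 168 and 166 of the 171 remnants lay at such islands, so these lists do not separate the domains.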

How the data were processed

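The deposited region lists of 11 of the 14 libraries were analysed, 1 library per list and group, and the 3 input libraries were not analysed here. Build mm9 and the tools SICER 1.1, BWA 0.5.9-r26, SAMtools, R 2.14.0 and Picard come from the submitters' processing notes, which give them no role. Per the names of the deposited lists, H3K27me3 islands used 200 bp windows, a 600 bp gap and a false discovery rate of 0.00001. For the narrow peaks, the caller and threshold are not stated. The score deposited by the authors with each region is undefined in the files. Read depth is unknown. Island ends were extended by 1 bp to the last base. Overlap meant at least 1 bp. Shares carry Wilson and densities exact Poisson intervals at 95%, and differences Newcombe intervals. All treat peaks as independent, although several can lie in 1 domain, so intervals for peaks may be too narrow. Python 3.11.15, numpy 2.4.6, scipy 1.17.1 and matplotlib 3.10.9 were used. Overlap counts of all 11 lists were checked with bedtools 2.31.1, and 0 differed. In simulated data, 100 of 100 islands planted inside the 223 domains were recovered. This checks the overlap counting only, not the calling of islands or peaks.

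The members were chosen with earlier results of these data known, as were the tests. Domains named in the text were the 5 with the highest score, the most remnant bases, the most gained H3K4me3, the most gained H3K27ac, and neither remnant nor gain, plus 3 on each side of the length minimum. The other domains over 50% covered, the cover classes, the places of gained peaks on remnants and the neighbourhoods of 100 kb were chosen after their values were seen.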

Additional observations from a re-analysis of the deposited data

How the results depend on the processing

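All 10 results were recomputed under alternatives, 71 values in all, and 43 stayed within the counting interval or 1.5 times of the reported count. No paired analysis was possible because every group held 1 library. The share of domains met by a knockout island was 4.48% when 50% of the domain had to be covered, 31.8% for the upper 50% of knockout scores, 38.3% from 15 kb (470 domains), 60.3% from 30 kb (58 domains), 34.4% after joining Cas9 islands under 5 kb apart (813 domains) and 34.98% without regions at Cas9 antibody islands. Joining islands also gave 53.2% of remnant bases in the inner 50%. Counts of gained H3K4me3 peaks and of domains with one were 3 and 3 for the upper 50% of scores, 126 and 100 from 15 kb, 27 and 18 from 30 kb, and 206 and 158 after joining. For H3K27ac they were 5 and 4, 61 and 50, 8 and 7, and 132 and 102, and 13 and 11 with lists of equal number. The settings by length and joining change the number of domains, and its part in the counts was not tested. Gained peaks had low scores within their lists, and few were left in the upper 50% of scores. The H3K27ac difference between domains with and without a remnant was 12.8 points from 30 kb, opposite in sign to the reported one, and the cause was not tested. These alternatives were chosen after seeing the data: gained H3K4me3 on a remnant was 0% for the upper 50% of scores, where 2 peaks were left, and 36% without regions at Cas9 antibody islands.

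Peak and island calls depend on depth, which is unknown. Enrichment below a caller's threshold is not listed, so the absence of a remnant or peak from a list is not absence of the mark. With 1 library per group, biological and technical variation could not be measured.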
